A study of Mus musculus with 9 samples.

Results

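A set of 7 genes of the GABA-A receptor family was followed in nuclear RNA of mouse hippocampal pyramidal cells: the alpha subunit genes Gabra2, Gabra3, Gabra4 and Gabra5, the beta subunit genes Gabrb1 and Gabrb2, and the delta subunit gene Gabrd. They were chosen by name from the 31052 genes of the deposited table, and all 7 passed the filter on low values and were tested. The study tagged with light the nuclei of cells whose activity had been imaged by two-photon microscopy, and separated place cells, which fire at particular positions of a mouse in its surroundings, from silent cells. Place cells gave 5 libraries and silent cells 4. All 9 libraries carry the genotype WT and the tissue mouse hippocampus, and were made from nuclear RNA with a kit for small inputs of polyadenylated RNA. The labels give no age, no treatment, no driver of the tag and no number of nuclei per library. They name a mouse in each title but do not say whether each library is a separate animal, so p-values measure the spread between these libraries.

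GABA-A receptors are chloride channels built of 5 subunits around a pore, usually alpha and beta subunits with a gamma or a delta subunit. In the hippocampus, receptors with alpha2 sit at synapses and on the axon initial segment of pyramidal cells, where gephyrin helps to hold them, while receptors with alpha5 lie largely outside synapses of pyramidal cells and carry tonic inhibition. Alpha4 pairs with delta in extrasynaptic receptors, best known in dentate granule cells, and delta is also found in some interneurons. Beta subunits are needed for assembly and help to form the site where GABA binds.

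All of the 7 genes except Gabrd lie next to another subunit gene, as annotated in GENCODE M21 on the GRCm38 build. The neighbouring coding genes of Gabrd are Prkcz and Cfap74. Gabra2, Gabra4 and Gabrb1 are on chromosome 5, where Gabra4 and Gabrb1 are neighbours that start in opposite directions. Gabra5 is on chromosome 7, Gabrb2 on chromosome 11, Gabrd on chromosome 4 and Gabra3 on chromosome X. The promoters of 2 of them are shown because Gabra2 was the member with the most separated groups and Gabrb2 the one with the most uneven levels. Each line holds the 250 bases before the start site, 5′ to 3′ on the gene's strand, from RefSeq on GRCm38.p6 (the deposited table used GRCm39), at chr5:71095850-71096099 on the minus strand for Gabra2 and chr11:42420190-42420439 on the plus strand for the most upstream of 3 listed starts of Gabrb2. Capitals mark the GC box GGGCGG or its reverse complement, and the TATA box TATAAA.
Gabra2: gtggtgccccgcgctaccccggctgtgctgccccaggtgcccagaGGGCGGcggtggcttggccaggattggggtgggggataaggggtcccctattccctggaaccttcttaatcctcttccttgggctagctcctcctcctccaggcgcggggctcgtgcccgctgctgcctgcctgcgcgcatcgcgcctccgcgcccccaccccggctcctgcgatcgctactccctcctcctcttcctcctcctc
Gabrb2: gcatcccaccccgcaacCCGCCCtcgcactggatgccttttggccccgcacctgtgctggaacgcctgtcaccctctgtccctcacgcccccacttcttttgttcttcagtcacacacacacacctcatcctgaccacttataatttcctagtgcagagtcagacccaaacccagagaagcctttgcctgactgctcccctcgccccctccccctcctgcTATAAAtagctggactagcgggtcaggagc
The Gabra2 window was 70.0% G and C, against a median of 52.4% over 32851 promoter windows of the same length. It held 1 GC box, with its first base at -205 from the start, and no TATA box. The Gabrb2 window was 58.8% G and C and held a GC box at -233 and a TATA box at -30. On either strand, the GC box occurred in 32.7% of the windows and the TATA box in 12.4%. Neither window held TGACGTCA (the CRE, in 1.55% of the windows), GCGTGGGCG (an EGR site, in 0.536%) or CACGTG (an E-box, in 6.02%). The table matched 6 of the 7 genes, and among the other 4 matched genes a GC box was found for Gabra4 (2 matches) and a TATA box for Gabra3, at -123. These matches describe letters, not bound sites.

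Recovered depth, in units of 1000000 reads, was 14.02 to 22.4, with means of 18.5 ± 2.47 (SD, n = 5) for place cells and 18.2 ± 3.73 (SD, n = 4) for silent cells. Genes with reads numbered 16613 to 20990 in place and 14176 to 17899 in silent libraries. Pairs of libraries correlated across genes at r = 0.548 to 0.766 over 36 pairs, and 41.9% of the 15225 tested genes had no reads in at least 1 library. Markers of excitatory neurons were present throughout: all 6 of 6 had reads in every library, and their sum was 3237 to 4140 reads per 1000000 of the library's scaled depth (RPM) in place and 3311 to 4553 RPM in silent libraries. The 8 CA1 markers summed to 649 to 1145 RPM and 855 to 1096 RPM. Markers of other cells were present too, with 8 oligodendrocyte genes at 186 to 3169 RPM in place and 118 to 539 RPM in silent libraries, and 6 astrocyte genes at 168 to 2350 RPM and 175 to 464 RPM. Summed reads of 3 Y-linked genes were 519 to 985 RPM in the 4 silent libraries and 784 RPM in place replicate 1, and at most 0.266 RPM in the other 4 place libraries, so the sex that these reads mark cannot be told apart from the groups except through that 1 library.

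Gabra2, the alpha subunit of axon initial segment and synaptic receptors, was lower in every place library than in every silent library. It stood at 340.2, 297, 324, 361 and 396 RPM in place replicates 1 to 5. The silent replicates 1 to 4 held 655, 543, 446 and 487 RPM. The highest place library was below the lowest silent library, and the groups did not overlap. The means were 344 ± 37.4 RPM (SD, n = 5) and 533 ± 90.8 RPM (SD, n = 4), a level 35.5% lower in place libraries. The log2 fold change, place minus silent on log2(value + 1), was -0.62 ± 0.18 (SE), with a 95% interval of -1.01 to -0.24 from limma. Its unadjusted p was 0.00421, rank 76 of 15225, and its limma adjusted p was 0.825, so it did not pass the threshold of 0.05. Gabra2 was counted from 5124 to 11010 reads per library, so the error of counting reads alone is small beside the spread between libraries. The number of nuclei per library is not given, so error from the small input is not known. Place replicate 1, which carried Y-linked reads as the silent libraries did, had 340.2 RPM of Gabra2, inside the range of the other place libraries. In all other libraries the Y-linked reads followed the groups, and the part of sex in the Gabra2 level was not tested. With the number of detected genes as a term in the fit, the Gabra2 fold was -0.53 (limma adjusted p = 0.898).

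Read against all genes, 1 of the 7 subunit genes had groups that did not overlap, and that one was lower in place. Of all tested genes, 0.591% had such a separation in that direction (90 genes), and 1.89% in either. At an unadjusted limma p under 0.05, the same 1 of 7 was lower in place, against 1.27% of all genes in that direction and 5.06% in either. After adjustment, 0 of the 7 and 0 of 15225 genes (0%) passed in limma. The smallest adjusted p over all genes was 0.422, and 771 genes had an unadjusted p under 0.05. With limma's voom on the recovered reads 4 genes passed, none of them a subunit gene named here. Lower mean log2 values in place were found for 5 of the 7, against 40.9% of all tested genes, and the median log2 fold was -0.62 for the 7 and 0.20 for all genes. In these bulk libraries fewer cells of a type and less RNA per cell cannot be told apart.

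**Figure D1:**
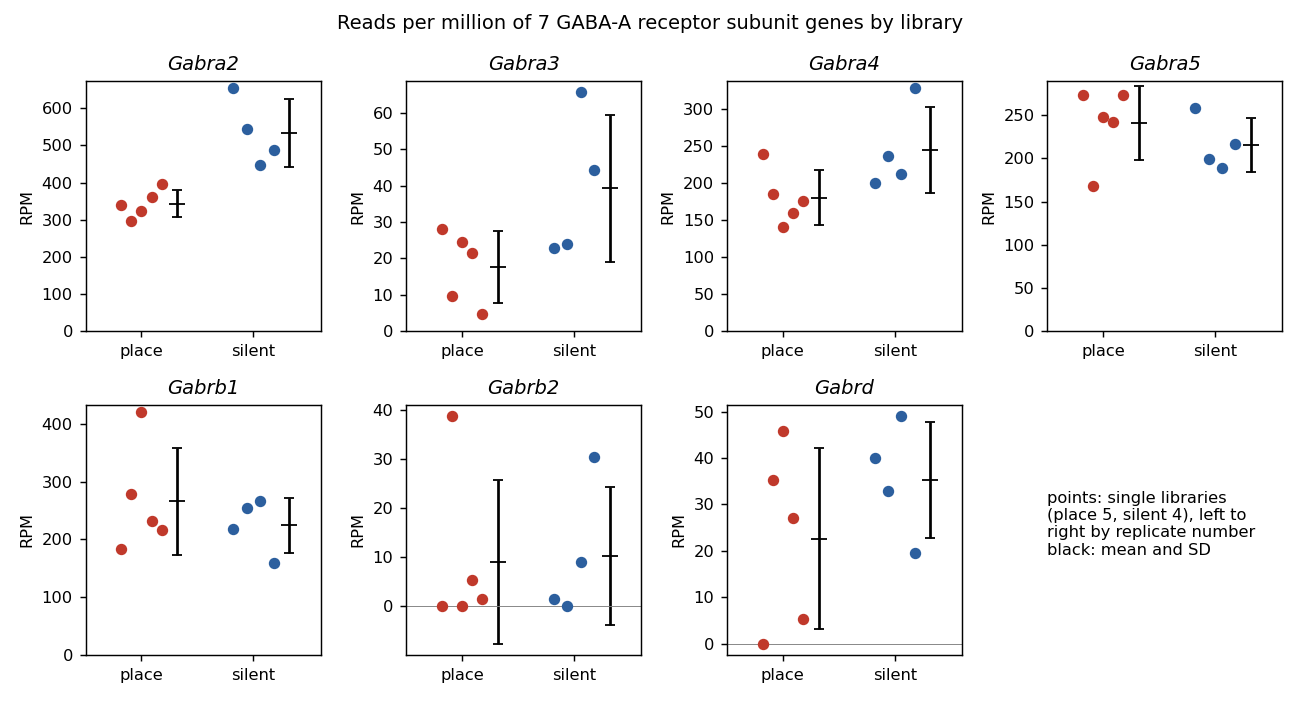
Each panel plots 1 subunit gene, with RPM on the y axis and the 5 place and 4 silent libraries as points; black marks give the mean and SD. Gabra2 is the panel whose groups are apart, at 297 to 396 RPM in place and 446 to 655 RPM in silent libraries, while Gabrb2 and Gabrd include libraries at 0.

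Gabra5, the extrasynaptic alpha subunit of pyramidal cells, was nearly even across the libraries. In place libraries it was 272.8, 168.5, 248, 242 and 273 RPM. In silent libraries it was 258, 199, 188 and 216 RPM. Place replicate 2 was the lowest of all 9, and the groups overlapped. The means were 241 ± 42.9 RPM (SD, n = 5) and 215 ± 30.9 RPM (SD, n = 4), with a log2 fold of 0.15 ± 0.23 (SE; 95% interval -0.35 to 0.65; limma adjusted p = 0.918). The highest library held 1.62 times the lowest. The coefficient of variation over all 9 libraries was 16.6%, and only 3.25% of the 1847 tested genes within 2-fold of its level had a lower one (their median was 31.1%). For Gabra2 the same figure was 27.4%, beside a median of 26.1% among 826 genes of like level. In the annotation Gabra5 shares 148 exon bases with the antisense gene Gm9962, and the strand setting of the counting is not given, so reads in that stretch could belong to either gene.

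Gabra4, the usual partner of delta, had a lower mean in place libraries, with overlapping groups. The 5 place libraries held 239, 185, 141, 159.7 and 175 RPM. The 4 silent libraries held 200.4, 236, 213 and 328 RPM. Place replicate 1 lay above 3 of the silent libraries, and silent replicate 4 was the highest of all. Means were 180.0 ± 37.1 RPM (SD, n = 5) and 244 ± 57.8 RPM (SD, n = 4), with a log2 fold of -0.44 ± 0.24 (SE; 95% interval -0.96 to 0.09; limma adjusted p = 0.861). Gabra4 and Gabrb1 share 46 exon bases on opposite strands, where reads could not be assigned with certainty.

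Gabra3, an alpha subunit of synaptic receptors in many brain regions and an X-linked gene, was much less abundant. It was read at 28.1, 9.63, 24.5, 21.4 and 4.81 RPM in place libraries. Silent libraries gave 22.8, 24.0, 65.7 and 44.3 RPM. Both highest values were silent, and the other 2 silent libraries lay within the place range. Its means were 17.7 ± 9.99 RPM (SD, n = 5) and 39.2 ± 20.2 RPM (SD, n = 4), and the log2 fold was -1.28 ± 0.70 (SE; 95% interval -2.80 to 0.25; limma adjusted p = 0.861). The 13.7-fold range between its lowest and highest library gave a coefficient of variation of 66.9%, beside a median of 66.8% for 5010 genes of like level. The 12 interneuron markers, of which 3 had reads in all libraries and none was at 0 throughout, summed to 87.2 to 319 RPM in place and 109.7 to 937 RPM in silent libraries. Silent replicate 3, the library with most Gabra3, had the highest sum, of which Vip alone made up 640.3 RPM. Without Vip its sum was 297 RPM, below silent replicate 2 (395 RPM) and place replicate 3 (319 RPM). The part of these markers in the Gabra3 level was not tested.

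Gabrb1 was the main beta subunit gene of the 2 that are described here. Place libraries held 183, 278.5, 420.4, 232 and 217 RPM. Silent libraries held 218, 254, 267 and 160.1 RPM. Place replicate 3 stood above all others, and the remaining libraries of both groups overlapped. With means of 266 ± 92.9 RPM (SD, n = 5) and 225 ± 47.9 RPM (SD, n = 4), the log2 fold was 0.21 ± 0.27 (SE; 95% interval -0.39 to 0.81; limma adjusted p = 0.899). Without place replicate 3 the fold was 0.021. That library also held 2350 RPM of 6 astrocyte markers, all with reads in it, against 168 to 247 RPM in the other place and 175 to 464 RPM in the silent libraries. The part of the astrocyte markers in the Gabrb1 level was not tested.

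Gabrb2, the other beta subunit gene, was close to undetected in most libraries and substantial in a few. Place libraries gave 0, 38.7, 0, 5.23 and 1.39 RPM, from 0, 687, 0, 115 and 26 reads. Silent libraries gave 1.42, 0.101, 8.90 and 30.4 RPM, from 20, 2, 146 and 688 reads. One library of each group, place replicate 2 and silent replicate 4, carried most of the reads. The 2 place libraries without a read allow up to 0.199 and 0.160 RPM, the level of 3 reads, counting error only. Means were 9.06 ± 16.7 RPM (SD, n = 5) and 10.2 ± 14.0 RPM (SD, n = 4), and the log2 fold of -2.25 ± 2.82 (SE; 95% interval -8.39 to 3.88; limma adjusted p = 0.893) depends on the pseudocount because of the libraries at 0. The direction turned with array weights (0.72) and without silent replicates 1 and 4 and place replicate 3 (0.45). Such gaps are common at this level: of 4040 genes within 2-fold of it, 75.0% lacked reads in some library, although 87.5% had a lower coefficient of variation than the 153% of Gabrb2.

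Gabrd, the delta subunit of tonic receptors, was low but detected in 8 of the 9 libraries. It was 0, 35.3, 45.7, 27.0 and 5.19 RPM in place libraries, from 0, 626, 860, 594 and 97 reads. In silent libraries it was 39.99, 32.8, 49.0 and 19.4 RPM, from 562 to 804 reads in the highest 3 and 440 in the lowest. Place replicates 1 and 5 were below every silent library, and the other place libraries lay among the silent ones. Means of 22.6 ± 19.5 RPM (SD, n = 5) and 35.3 ± 12.5 RPM (SD, n = 4) gave a log2 fold of -2.65 ± 2.00 (SE; 95% interval -7.00 to 1.70; limma adjusted p = 0.861), and without place replicate 1 it was -0.62. The 8 dentate granule markers, the cells best known for delta, summed to 152 to 487 RPM in place and 149 to 395 RPM in silent libraries, with none at 0 throughout. Place replicate 1, without Gabrd, held 229 RPM of them with 5 of the 8 at 0, and 209.8 RPM of that was Calb1, which CA1 pyramidal cells also express. Without Calb1 the other 7 summed to 19.0 RPM there, to 15.5 RPM in place replicate 4, to 352 RPM in place replicate 3 and to 84.3 to 137 RPM in the silent libraries. Place replicate 4 held 27.0 RPM of Gabrd. The markers' part in the Gabrd level was not tested.

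**Figure D2:**
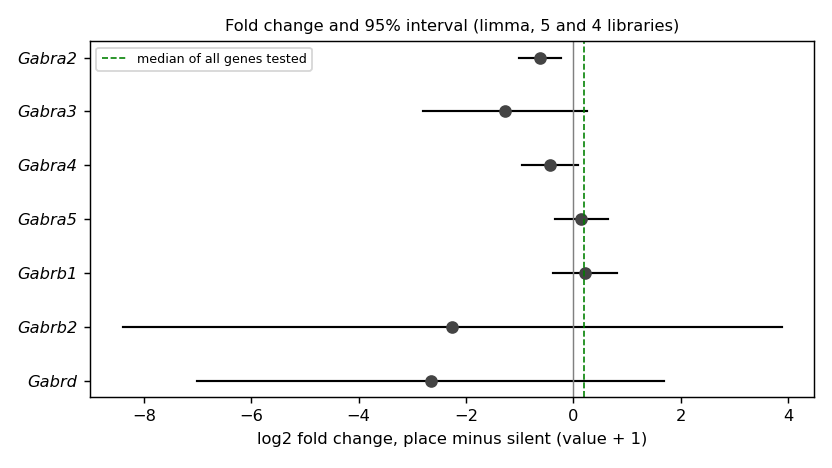
The x axis is the limma log2 fold change, place minus silent on log2(value + 1), for each of the 7 genes, as a point with its 95% interval; the dashed line is the median of all tested genes, 0.20. The interval of Gabra2 (-1.01 to -0.24) is the one that does not reach 0, before any adjustment, and those of Gabrb2 and Gabrd are the widest.

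Levels can be compared between genes only per length, so RPM were divided by the exon length of each gene in kilobases. Gabra5 had the highest such level of the 7, at 77.2 ± 12.8 RPM per kb (SD, n = 9), followed by Gabra2 at 56.0 ± 15.3 and Gabra4 at 34.3 ± 9.13. Gabrb1 followed at 17.9 ± 5.43, Gabrd at 9.83 ± 5.97, Gabra3 at 6.95 ± 4.64 and Gabrb2 at 1.505 ± 2.30 RPM per kb. The ranges over the 9 libraries overlapped for every pair of neighbours in this order. Across both groups the lowest Gabra5 level, 56.7 RPM per kb, was above the highest of Gabra4, 53.9. With the longest transcript as the length these ranges overlapped. The lowest Gabra5 was then 63.1 (place replicate 2) and the highest Gabra4 79.9 RPM per kb (silent replicate 4). By group, Gabra2 was at 45.0 RPM per kb in place and 69.8 in silent libraries, beside Gabra5 at 81.0 and 72.5. These levels assume that counted reads came from exons. The sources do not say whether reads of unspliced nuclear RNA were counted, and the 2 annotations differ in build.

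The 4 alpha genes divided differently in the 2 groups. Of their summed level per kb, Gabra5 took 50.2, 44.1, 53.7, 50.7 and 52.9% in place and 41.1, 36.6, 36.5 and 36.1% in silent libraries, a mean of 50.3% ± 3.76 (SD, n = 5) against 37.6% ± 2.37 (SD, n = 4). Gabra2 took 24.4, 30.3, 27.3, 29.5 and 29.8% in place and 40.6, 38.9, 33.7 and 31.6% in silent libraries, a mean of 28.3% ± 2.46 (SD, n = 5) against 36.2% ± 4.24 (SD, n = 4). Both shares separated the groups without overlap, Gabra5 higher and Gabra2 lower in place. Gabra4 overlapped at 18.6% ± 3.76 and 20.9% ± 4.58, as did Gabra3 at 2.79% ± 1.44 and 5.34% ± 3.13. The 2 alphas of synaptic receptors, Gabra2 and Gabra3 together, ran from 28.3 to 32.9% in place and from 37.2 to 43.3% in silent libraries. Shares sum to 100% in each library, so a lower share of one raises those of the others, and no p is given for them. With the longest transcript as the length, Gabra2 and Gabra5 shares remained apart, while without a length correction the Gabra2 share overlapped (38.6 to 46.6% in place and 45.2 to 57.6% in silent libraries) and the Gabra5 share did not.

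**Figure D3:**
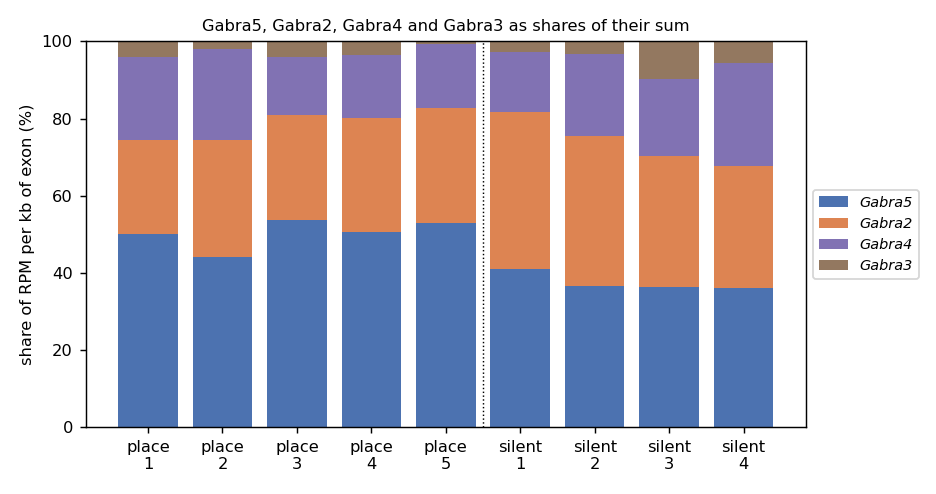
Stacked bars give, for each library on the x axis, the share of Gabra5, Gabra2, Gabra4 and Gabra3 in the summed RPM per kb of these 4 genes. Gabra5 fills 44.1 to 53.7% of the place bars and 36.1 to 41.1% of the silent bars.

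The ratio of 2 genes within a library does not depend on how the library was scaled. The level per kb of Gabra2 was 0.565 ± 0.0782 (SD, n = 5) times that of Gabra5 in place and 0.962 ± 0.0818 (SD, n = 4) times in silent libraries. It ran from 0.485 to 0.686 and from 0.875 to 1.06, so the groups did not overlap. On reads, the log2 ratio averaged 0.53 in place and 1.30 in silent libraries, a difference of -0.77. Of the 10 pairs among the 5 members with reads in all libraries, this was the 1 pair whose groups were apart. Over all 8838 genes compared with Gabra5 in the same way, 1.35% had a ratio that was lower in every place library. Over Gabra2, 7.84% had a ratio that was higher in every place library, so many genes stood apart from Gabra2 as Gabra5 did. Gabrd per 100 of Gabra4, per kb, was 30.2 ± 27.8 in place and 33.2 ± 16.0 in silent libraries. Gabrb2 made up 5.85% ± 9.89 and 9.37% ± 13.6 of the sum of Gabrb1 and Gabrb2, and both measures overlapped between groups. The Gabrb2 share was 1.51% without place replicate 2 and 2.75% without silent replicate 4.

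**Figure D4:**
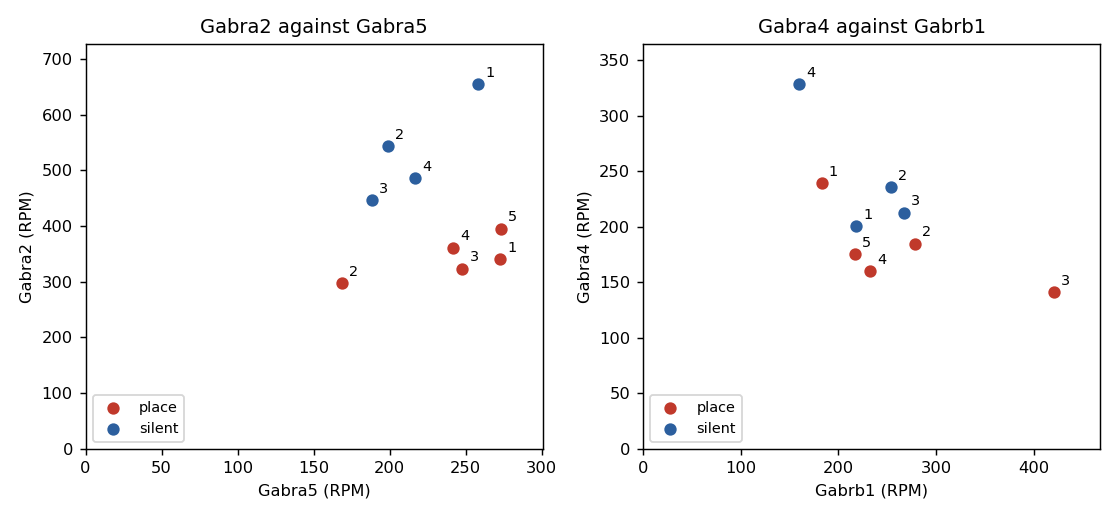
Each point is 1 library, numbered by replicate and coloured by group, with RPM on both axes: Gabra2 against Gabra5 on the left, Gabra4 against Gabrb1 on the right. On the left the silent libraries lie above the place libraries at like Gabra5 levels, and on the right place replicate 3 has the highest Gabrb1 (420.4 RPM) and the lowest Gabra4 (141 RPM).

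Across the 9 libraries the subunit genes did not move as one group. Gabra2 and Gabra5 had a Pearson correlation of 0.07 (Spearman 0.07) on log2(value + 1), and Gabra2 and Gabra4 one of 0.47. Gabra4 and Gabrb1, neighbours on chromosome 5, had the lowest Pearson value, -0.76 (Spearman -0.60), with place replicate 3 at one end and silent replicate 4 at the other. By Spearman the lowest was Gabra5 with Gabrb2, at -0.65 (Pearson -0.55). Gabrb1 and Gabrd had 0.47 by Pearson and 0.78 by Spearman. These values describe 9 points that mix both groups and share library depth and quality.

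For each gene, the closest patterns over the 9 libraries were sought among 7865 tested genes with reads in all of them, by Pearson correlation on log2(value + 1). Gabra2 was closest to Sirt4 (0.924), and Gabra3 to Caly (0.917) and Kpna3 (0.915). Gabra4 was closest to Snhg5 (0.929) and Zeb2 (0.908). For Gabra5 they were Dmd (0.947), the gene of dystrophin, and Hnrnph2 (0.919). Gabrb1 went with Kdm2a (0.918) and Pacs2 (0.913). Gabrb2 was nearest to Dstyk (0.964) and Fyb2 (0.929), and Gabrd to Nfic (0.985) and Rnf216 (0.982). The number of genes at 0.8 or more was 54 for Gabra2, 24 for Gabra5, 49 for Gabrb2 and 281 for Gabrd. Both Gabrb2 and Gabrd had no reads in place replicate 1.

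Genes that hold, move and assemble the receptors showed no passing difference. Of 26 listed, 25 were tested, 17 with a positive and 8 with a negative log2 fold, with a median of 0.27 beside 0.20 for all genes. The smallest p belonged to Dag1, the dystroglycan of perisomatic synapses, at 87.4 ± 26.4 RPM (SD, n = 5) in place and 50.7 ± 25.6 RPM (SD, n = 4) in silent libraries. Rdx, the radixin that anchors alpha5 receptors outside synapses, was at 27.4 ± 13.1 and 20.5 ± 36.4 RPM. Plcl2, a phospholipase C-like protein, was at 28.7 ± 6.84 and 47.9 ± 9.43 RPM, and Trak1, a motor adaptor, at 128 ± 19.6 and 89.0 ± 56.6 RPM. The limma adjusted p was 0.861 for each of these 4.

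The genes that set the chloride gradient, on which the sign of the GABA response rests, were 5 with a positive and 5 with a negative log2 fold out of 10 tested, with a median of -0.08. Car2, a carbonic anhydrase, was at 169 ± 141 RPM (SD, n = 5) in place and 71.5 ± 35.9 RPM (SD, n = 4) in silent libraries. Clcn2, a chloride channel, was at 213 ± 90.3 and 282 ± 34.6 RPM, and the kinases Stk39 and Oxsr1 at 61.5 ± 37.0 and 85.0 ± 45.2 RPM and at 78.7 ± 18.6 and 73.2 ± 53.8 RPM. The lowest limma adjusted p of the list was 0.861. Car2 is also made by oligodendrocytes, whose 8 markers had higher sums in 3 of the place libraries than in any silent one, and their part was not tested.

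For GABA synthesis, release, uptake and breakdown, 6 of 8 listed genes were tested, 2 with a positive and 4 with a negative log2 fold. Gad2 and Gad1, the enzymes that make GABA in interneurons, were at 23.4 ± 42.8 and 80.7 ± 76.5 RPM (SD, n = 5) in place and at 36.1 ± 20.5 and 38.5 ± 26.5 RPM (SD, n = 4) in silent libraries. The GABA transporter gene Slc6a11 was at 23.3 ± 33.4 RPM in place and 31.0 ± 27.2 RPM in silent libraries. Of 6 neurosteroid synthesis genes 2 were tested: Star was at 5.58 ± 9.57 and 15.6 ± 8.53 RPM, and Cyp11a1 at 3.10 ± 3.74 and 5.28 ± 3.48 RPM. The smallest limma adjusted p in both lists was 0.861.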

How the data were processed

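Polyadenylated nuclear RNA was measured in 9 libraries, given as rows of 1 deposited table whose 31052 columns are genes and whose unit is a normalized read signal. Per the submitters' processing notes, STAR, HTSeq and GRCm39 were used, without version, role or order. Annotation, strand setting and the tool for normalization: not given in the sources used here. From the values, the authors' signal carries 1 factor per gene and none per library. In 8893 of the 8894 genes above 0 in all libraries, division by a TMM (trimmed mean of M-values) factor of the gene against Ezh2 gave whole reads within 0.05. All 7 members came out whole, and on simulated data the true reads of 500 of 500 genes were returned. RPM are recovered reads per 1000000 of TMM-scaled depth.

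The values of each library were divided by its TMM-scaled depth, relative to the mean of that depth over the libraries. TMM-scaled depth is recovered depth times the library's own TMM factor (M-values trimmed by 30%, A-values by 5%). A gene needed a value of 10 or more in 4 or more libraries. limma 3.58.1 (R 4.3.3) was fitted with a trend on log2(value + 1) of all 9 libraries, and p-values were adjusted by Benjamini-Hochberg over 15225 genes, called at 0.05. Adding 1 shrinks the folds of low genes. Folds are differences of mean log2 values, so libraries without reads can make them larger than the ratio of mean RPM implies. Gabrd had a log2 fold of -2.65 at a place over silent ratio of mean RPM of 0.641. For Gabrb2 the fold was -2.25 at a ratio of 0.888. The fit was tested on simulated data. Shares and ratios were described without a test. Exon lengths are unions of exons in GENCODE M21 on GRCm38.

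All 7 members are named, with the 4 genes of smallest p in each pathway list and the 2 genes of highest correlation per member, leaving out predicted models. Some genes that this rule takes are not reported here. Members and lists were chosen with earlier results of these data known. Alternatives covered library scaling, pseudocount, filter, model, a covariate, gene length and left-out libraries.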

Additional observations from a re-analysis of the deposited data

Results flagged for a closer look

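Over 24 groups of libraries checked for a single library far from the rest, 3 were marked, and chance marks about 1 group in 20. Gabrb2 stood at 38.7 RPM in place replicate 2, with a gap to the next library of 0.865 of the group's range. The same library held a Gabrb2 share of 23.2% of the sum of Gabrb1 and Gabrb2, with a gap of 0.799 of the range. Both exceed the critical value of 0.71 for 5 libraries. The Gabra5 share of the 4 alphas was 41.1% in silent replicate 1, with a gap of 0.904 of the range against a critical value of 0.829 for 4 libraries. That share was still below every place library.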

How the results depend on the processing

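Over 21 alternatives, 0 of the 7 subunit genes passed the threshold, and the Gabra2 fold stayed between -0.71 and -0.51 (-0.71 to -0.52 when 1 library was left out), with adjusted p from 0.491 to 0.952. Its unadjusted p was under 0.05 in 20 of the 21. The exception, 0.0599, was the fit without silent replicates 1 and 4 and place replicate 3, an alternative chosen after seeing the data. In that fit the direction turned for Gabrb1 (-0.21) and Gabrb2 (0.45), and array weights turned Gabrb2 to 0.72. Gabra3, Gabra4, Gabra5 and Gabrd kept their sign in all 21. The median fold of all genes ran from -0.03 to 0.26 over the settings. The count of genes past the threshold was 4 with voom, of which 3 were higher in place, and 1 when place replicate 1 was left out, with 0 to 1 over the fits that left out 1 library. The cause of these changes was not tested.

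Without length correction the Gabra2 share of the 4 alphas was 44.1% in place and 51.5% in silent libraries, the Gabra4 share 23.1% in place, the Gabra5 share 30.6% and 20.8%, and Gabrd per 100 Gabra4 15.7 in silent libraries. With the longest transcript as length, the Gabra5 share was 45.4% in place and 33.3% in silent libraries. These follow from the lengths alone. Leaving out 1 library gave a Gabra2 share of 27.8 to 29.2% and 34.7 to 37.7%, and a Gabra5 share of 49.5 to 51.9% and 36.4 to 38.1%, in place and silent libraries. Gabrb2 had at most 2 reads in 3 libraries, so its folds rest on few reads there.

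No paired analysis was possible because the labels give the place and silent libraries no shared replicate numbers; replicate numbers only name libraries in accession order.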
